A study of Mus musculus with 12 samples.

Results

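The interferon regulatory factor (Irf) genes encode a family of transcription factors, and their mRNA was compared here in 3 mouse cell lines. The genes were chosen as members of the family by name, and the rule used none of their values: Irf1, Irf2, Irf3, Irf4, Irf5, Irf7, Irf8 and Irf9, which make up 8 of the 25128 genes and unnamed targets on the array. Each had 1 target with 3 probes, so that 24 of the 72000 probes on an array belong to these genes. The genes lie on chromosomes 11 (Irf1), 8 (Irf2 and Irf8), 7 (Irf3 and Irf7), 13 (Irf4), 6 (Irf5) and 14 (Irf9). Irf7 and Irf9 were higher in BV2 than in N18 cells by 3.70 and 2.02 on the log2 scale, Irf1 and Irf2 did not pass the test between those lines, and Irf4 was detected in none. The lines were BV2, a mouse microglial line, N18, a mouse neuroblastoma line, and AtT20, a mouse pituitary corticotroph line. No treatment was given to any of them. By the methods, BV2 cells were kept in conditions meant to favor a resting, non-activated state, and those conditions and the line cannot be told apart. The labels and the methods name no genotype change for any line. RNA from 4 plates of each line, extracted separately, was hybridized to single-color NimbleGen arrays, with 1 array per plate. Whether the plates of a line came from separate cultures is not stated, so the tests measure the spread between plates. A slide holds 4 arrays of this design. Which plates shared a slide is not given in the sources used here, and an effect of the slide and an effect of the line cannot be told apart.

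The lines were first set against genes that mark them. Of 9 microglial genes on the array, 8 were above threshold in BV2 cells, 2 in N18 cells and 0 on the plates labelled AtT20. Those above it in BV2 cells were Ptprc, Itgam, Csf1r, Tyrobp, Fcer1g, Laptm5, Adgre1 and Ctss, while Aif1 was below threshold in all 3. Of 11 neuroblastoma genes, 10 were above threshold in N18 cells, 5 in BV2 cells and 5 on the plates labelled AtT20. Stmn2 was above threshold in all 3, at 4.48 ± 0.22 in N18 cells, 0.88 ± 0.10 in BV2 cells and 0.38 ± 0.17 on the plates labelled AtT20 (SD, n = 4). Of 7 corticotroph genes, 1 (Pitx1) was above threshold on the plates labelled AtT20, 3 in N18 cells and 2 in BV2 cells. These marker counts stand beside 35% of all genes and targets above threshold on the plates labelled AtT20, 55.4% in N18 cells and 53.3% in BV2 cells. Pomc, the precursor of the hormone that corticotrophs secrete, had a level of 0.29 ± 0.26 on the plates labelled AtT20, below threshold, and of 0.67 ± 0.12 in BV2 cells, above it (SD, n = 4). Those plates also carried a narrow spread of intensities, with an interquartile range over the probes of 0.38 to 0.78 on the log2 scale, against 1.28 to 1.73 for BV2 and 1.91 to 2.21 for N18 cells. They are therefore called the plates labelled AtT20, and the differences that turn or lose their call with the scale are given on more than 1 scale. The part of this spread in those differences was not tested.

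Irf proteins share a DNA-binding domain that reads GAAA repeats, found in the promoters of genes that answer interferon. Irf3, Irf5 and Irf7 lie in the cytoplasm until a sensor of viral or bacterial nucleic acid, acting through a kinase such as Tbk1, leads to their phosphorylation and entry into the nucleus, where they turn on interferon genes. Irf9 joins Stat proteins in the complex that carries the signal of the type I interferon receptor to the nucleus. Irf1 activates and Irf2 opposes many interferon-responsive genes, while Irf4 and Irf8 bind with Ets partners such as Spi1 (PU.1) in lymphoid and myeloid cells. Irf8 is known in the brain as a regulator of microglia.

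A level is the log2 of the mean of the 3 probes of a gene minus the mean of 10 seminal fluid proteins on the same plate, genes unlikely to be transcribed in these lines. A gene was above threshold when its mean level over 4 plates exceeded 2 SD of the seminal proteins, which came to 0.37 ± 0.11 on the plates labelled AtT20, 0.56 ± 0.15 in BV2 cells and 0.74 ± 0.10 in N18 cells (SD, n = 4). By this rule 7 of the 8 Irf genes were above threshold in BV2 cells, where 53.3% of all genes and targets were. In N18 cells 5 were (Irf1, Irf2, Irf3, Irf8 and Irf9; 55.4% of all), and on the plates labelled AtT20 4 were (Irf2, Irf3, Irf5 and Irf8; 35% of all). Irf4 was below threshold in all 3 lines. When the middle probe was taken as the level of a gene, or when at least 2 probes were required above threshold, 1 of the 8 remained above threshold on the plates labelled AtT20, which was Irf5. The share of all genes above threshold under those 2 rules is not given here, so this fall cannot be set against that of all genes. Because RNA was taken from whole plates, more cells with an mRNA and more mRNA per cell cannot be told apart.

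**Figure D1:**
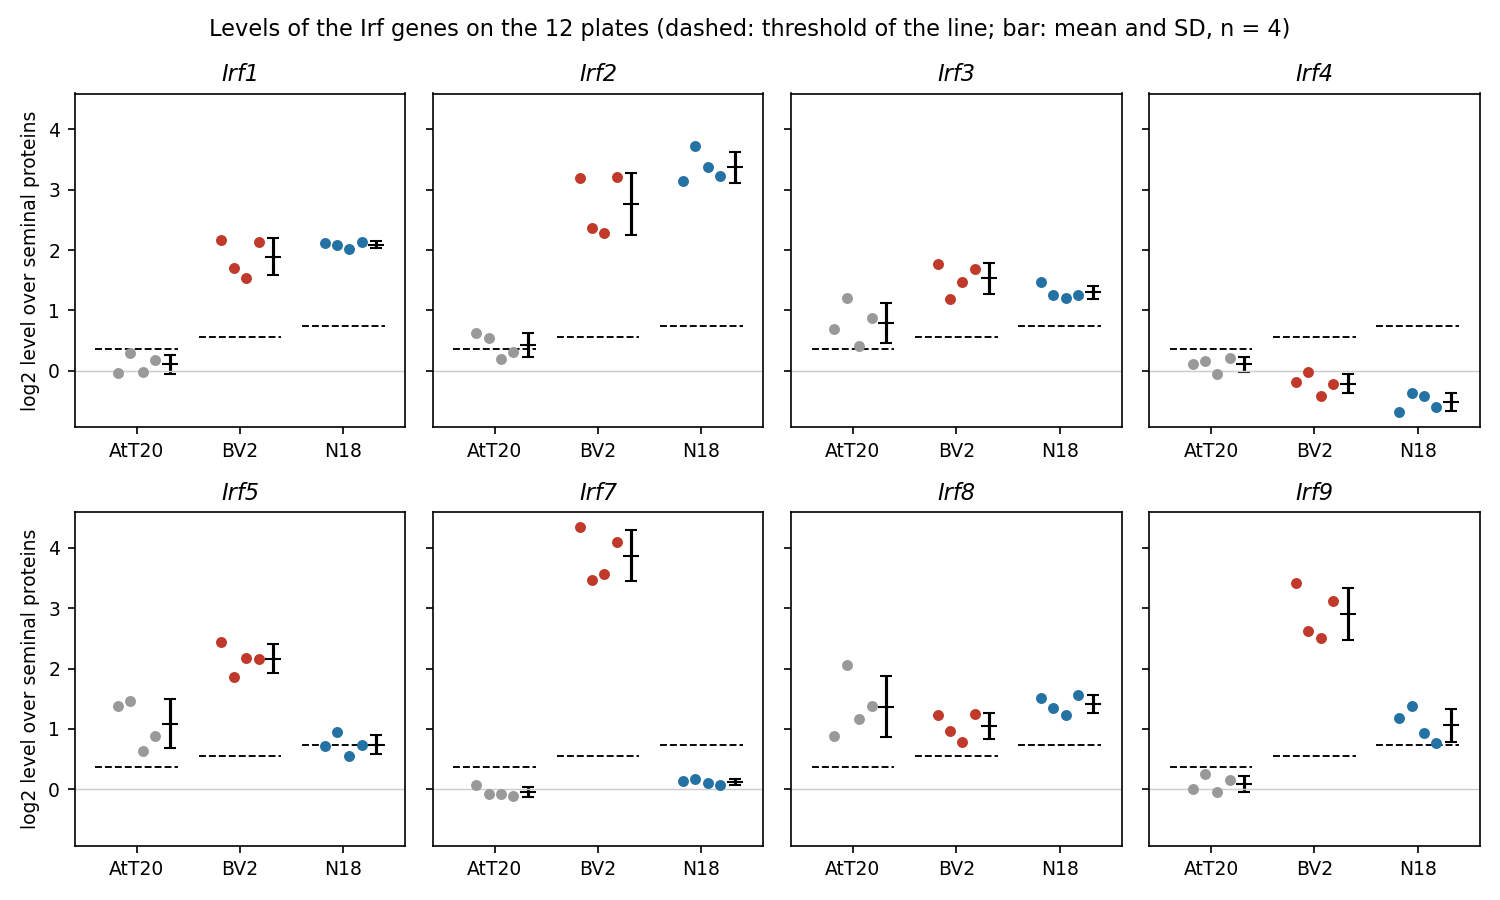
Each panel plots the log2 level of an Irf gene over the mean of the seminal proteins (vertical axis) on the 4 plates of each line (points), with the mean and SD as a black bar and the threshold of the line as a dashed segment. The BV2 plates of Irf7 lie between 3.47 and 4.34 while the other 8 plates lie between -0.11 and 0.18, and Irf4 stays below threshold in every line.

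Irf7, called the master regulator of type I interferon, gave the largest difference in the family between lines. Its level was 4.34, 3.47, 3.57 and 4.10 on the 4 BV2 plates. It was 0.14, 0.18, 0.11 and 0.07 on those of N18 cells and 0.07, -0.07, -0.07 and -0.11 on the plates labelled AtT20. The BV2 plates thus stood far above the rest, with no overlap, and Irf7 was below threshold on each of the other 8 plates. After quantile normalization of the 12 arrays, Irf7 was higher in BV2 than in N18 cells by 3.70 ± 0.11 (SE) on the log2 scale (limma, Benjamini-Hochberg adjusted p = 2.18e-13), a difference exceeded by 66 of the 25128 genes and targets. Against the plates labelled AtT20 the difference was 3.51 ± 0.11 (adjusted p = 2.68e-13), exceeded by 186. Measured against the threshold of the other line, this is at least 8.7-fold over N18 cells and at least 4.4-fold over the plates labelled AtT20, the smaller bounds of 3 scales. Between N18 cells and the plates labelled AtT20 no difference passed the test (-0.19 ± 0.11, adjusted p = 0.147). All 3 probes were higher in BV2 than in N18 cells by 4.13, 3.04 and 3.47. The numbers in the IDs of probes 2 and 3 differ by 7, and if these numbers are positions in the transcript those probes overlap, so they may not be independent.

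Irf7 lies on the minus strand of chromosome 7 (chr7:141263183-141266499). The window from 250 bases before to 50 bases after a start of the gene is printed here because this gene differs most between the lines (RefSeq, GRCm38.p6, chr7:141266375-141266674, minus strand). It holds none of 3 motifs searched on both strands: the core of the interferon-stimulated response element (GAAA, any 2 bases, GAAA), the gamma-activated site bound by Stat proteins (TTCNNNGAA), and the Ets-IRF composite element (GGAA, any 2 bases, GAAA). Matches to the first and the third can overlap. This says only that these letters are not in this window. Of 32851 promoter windows of this length, 3.44% hold the first motif, 8.3% the second and 2.72% the third.
Irf7: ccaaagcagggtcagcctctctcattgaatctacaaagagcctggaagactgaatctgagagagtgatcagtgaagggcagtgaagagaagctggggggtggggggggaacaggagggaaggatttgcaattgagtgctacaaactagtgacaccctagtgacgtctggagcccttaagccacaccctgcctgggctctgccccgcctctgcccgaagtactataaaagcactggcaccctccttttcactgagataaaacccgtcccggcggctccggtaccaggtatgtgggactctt

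Irf5, which acts downstream of Toll-like receptors in macrophages, was higher in BV2 than in N18 cells. Its level was 2.44, 1.86, 2.18 and 2.16 on the plates of BV2 cells and 0.72, 0.95, 0.55 and 0.73 on those of N18 cells. The groups did not overlap, and the difference after quantile normalization was 1.57 ± 0.12 (SE; adjusted p = 2.05e-08). Probe 2 carried most of it, at 2.15, with probes 1 and 3 at 0.92 and 0.76, and with the median of the probes the difference was 0.79 (adjusted p = 0.00688). In N18 cells the mean minus the threshold was -0.005 on the log2 scale, and leaving out plate 1 or plate 3, or the highest seminal protein, put Irf5 above it, so its absence from the N18 count rests on a margin smaller than the spread between plates. On the plates labelled AtT20 the level was 1.38, 1.46, 0.63 and 0.88, above threshold on all 4. There the probes disagreed: probe 2 was higher in BV2 cells than on those plates by 1.37 (adjusted p = 0.000104 over all probes), while for probe 3 BV2 minus AtT20 was -1.90 (adjusted p = 4.63e-09). For the gene no difference between BV2 cells and those plates passed the test (-0.17 ± 0.12, adjusted p = 0.211). It passed as lower in BV2 cells with the median of the probes (-0.59, adjusted p = 0.0205) and with probes averaged as log2 values (-0.32, adjusted p = 0.027), and as higher relative to the seminal proteins (1.08, adjusted p = 4.57e-05), so no direction is given.

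Irf3, the factor present in most cells before infection, was above threshold in all 3 lines. The level was 1.77, 1.19, 1.47 and 1.69 on the plates of BV2 cells and 1.47, 1.25, 1.21 and 1.26 on those of N18 cells, and these ranges overlap. After quantile normalization the ranges did not overlap, and Irf3 was higher in BV2 than in N18 cells by 0.58 ± 0.11 (SE; adjusted p = 0.000476). That call is the least firm of the 4 in this comparison. It was lost without normalization (0.26, adjusted p = 0.366), with the median of the probes (0.63, adjusted p = 0.0626) and on the seminal scale (0.23, adjusted p = 0.278), and of the separate probes only probe 2 passed (0.63, adjusted p = 0.00538). On the plates labelled AtT20 the level was 0.69, 1.20, 0.41 and 0.87. It rested on probe 2, at 1.58 ± 0.62 (SD, n = 4), while probes 1 and 3 were below threshold at 0.17 and -0.06. The direction against those plates depended on the scale and on the probe. BV2 minus AtT20 was -0.36 after quantile normalization (adjusted p = 0.00759) and 0.74 relative to the seminal proteins (adjusted p = 0.000887). After quantile normalization probe 1 was higher in BV2 cells by 1.15 (adjusted p = 0.00106 over all probes), while for probe 2 BV2 minus AtT20 was -1.35 (adjusted p = 9.11e-07). With the median of the probes the gene gave 0.63 (adjusted p = 0.0334), so no direction is given.

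Irf9, a DNA-binding subunit of the complex with Stat proteins, was detected in both BV2 and N18 cells but at different levels. It stood at 3.42, 2.62, 2.50 and 3.11 on the plates of BV2 cells. On the N18 plates it stood at 1.18, 1.38, 0.94 and 0.76, and on the plates labelled AtT20 at 0.00, 0.25, -0.04 and 0.16. The 3 groups did not overlap on this scale. After quantile normalization Irf9 was higher in BV2 than in N18 cells by 2.02 ± 0.13 (SE; adjusted p = 1.48e-09), a 4.07-fold difference exceeded by 287 genes and targets. It was higher in BV2 cells than on the plates labelled AtT20 by 2.11 ± 0.13 (adjusted p = 3.36e-10), or at least 2.2-fold. All 3 probes were higher in BV2 than in N18 cells, by 2.43, 1.64 and 1.82. Between N18 cells and the plates labelled AtT20 the value was 0.09 ± 0.13 (adjusted p = 0.537), and it ran from -0.42 without normalization to 0.97 relative to the seminal proteins, so no direction is given. The call of Irf9 as above threshold in N18 cells was lost with 3 SD and with olfactory receptor genes as controls.

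Irf1 and Irf2, the activator and the antagonist, were above threshold in BV2 and N18 cells, with no difference between those lines past the test, and were lower on the plates labelled AtT20. Irf1 was at 2.17, 1.71, 1.54 and 2.14 on the plates of BV2 cells, at 2.12, 2.09, 2.01 and 2.14 on those of N18 cells and at -0.03, 0.30, -0.01 and 0.18 on the plates labelled AtT20. Irf2 was at 3.19, 2.36, 2.28 and 3.21, at 3.14, 3.73, 3.37 and 3.23, and at 0.63, 0.55, 0.20 and 0.31 in the same order. For both genes the levels on BV2 and N18 plates overlapped and the plates labelled AtT20 lay apart. The difference between BV2 and N18 cells was 0.33 ± 0.14 (SE; adjusted p = 0.0738) for Irf1 and 0.03 ± 0.14 (adjusted p = 0.896) for Irf2, neither past the test, which does not show that the lines are alike. Both signs turned relative to the seminal proteins, where Irf1 gave -0.20 (adjusted p = 0.336) and Irf2 gave -0.61 (adjusted p = 0.0473).

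Irf1 was higher in BV2 cells than on the plates labelled AtT20 by 1.12 ± 0.14 (SE; adjusted p = 2.11e-06) and in N18 cells by 0.79 ± 0.14 (adjusted p = 7.85e-05). Irf2 was higher by 1.35 ± 0.14 (adjusted p = 2.94e-07) and 1.32 ± 0.14 (adjusted p = 3.35e-07). These 4 differences kept their direction in each of 9 alternatives apiece, while that of Irf1 between BV2 cells and those plates missed the test without normalization (0.42, adjusted p = 0.0588). Of 12 genes of all cells, 11 were higher in BV2 cells than on those plates and 1 lower, with a median difference of 1.35. In N18 cells 10 were higher and 1 lower, with a median of 1.41. The part of this shift in the values of Irf1 and Irf2 was not tested. Because Irf1 was below threshold on the plates labelled AtT20, its fold over them is known only to be at least 1.1 in BV2 cells and at least 1.0 in N18 cells. Probe 3 of Irf1 was below threshold in every line, and the level of the gene rests on probes 1 and 2. Probe 3 nevertheless passed in the other direction. For it BV2 minus AtT20 was -0.64 (adjusted p = 0.0135 over all probes) and N18 minus AtT20 was -0.75 (adjusted p = 0.00461). On the plates labelled AtT20 the call of Irf2 rests on probe 3 (0.96 ± 0.53), 2 of the 4 plates were above their threshold, and the call was lost under 7 of 8 alternatives. For that probe BV2 minus AtT20 was 0.06 (adjusted p = 0.805 over all probes) and N18 minus AtT20 was 0.08 (adjusted p = 0.715). Probes 1 and 2 of Irf2 passed as higher in both lines.

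The windows of both genes held motifs, and they are printed with the matched letters in capitals (RefSeq, GRCm38.p6, plus strand, counted from -1 at the base before the start). In Irf1 (chr11:53769764-53770063) the gamma-activated site TTCCCCGAA lies at -90 to -82. In Irf2 (chr8:46739495-46739794) GGAAGTGAAA, a match to the Ets-IRF element, lies at -247 to -238 and overlaps GAAAATGAAA, a match to the interferon-stimulated element, at -241 to -232. A gamma-activated site, TTCCGAGAA, follows at -224 to -216. Over the 8 genes, which have 11 windows, the interferon-stimulated core and the Ets-IRF element were each found in 1 gene (Irf2) and the gamma-activated site in 3 (Irf1, Irf2 and Irf8). Counted by window, the core was in 1 of 11, the gamma-activated site in 3 and the Ets-IRF element in 1. Of all promoter windows, 3.44%, 8.3% and 2.72% hold them in that order. A match is a run of letters, and no binding was measured here.
Irf1: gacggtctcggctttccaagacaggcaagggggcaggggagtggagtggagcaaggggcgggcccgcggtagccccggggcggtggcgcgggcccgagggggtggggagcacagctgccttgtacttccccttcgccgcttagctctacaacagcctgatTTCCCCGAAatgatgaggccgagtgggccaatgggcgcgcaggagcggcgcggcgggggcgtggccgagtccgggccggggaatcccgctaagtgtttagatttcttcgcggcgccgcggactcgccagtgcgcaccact
Irf2: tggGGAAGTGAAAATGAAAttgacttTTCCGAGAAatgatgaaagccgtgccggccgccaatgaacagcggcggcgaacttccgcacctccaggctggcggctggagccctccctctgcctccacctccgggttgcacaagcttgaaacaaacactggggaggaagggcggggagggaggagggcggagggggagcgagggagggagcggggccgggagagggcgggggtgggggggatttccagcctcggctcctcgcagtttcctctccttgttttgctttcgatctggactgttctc

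Irf8, which with Spi1 directs myeloid genes, was above threshold in all 3 lines and was not higher in the microglial line by the mean of its probes. The level was 1.23, 0.97, 0.78 and 1.24 on the plates of BV2 cells and 1.51, 1.34, 1.23 and 1.56 on those of N18 cells. On the plates labelled AtT20 it was 0.89, 2.06, 1.16 and 1.38, and the 3 groups overlapped. BV2 minus N18 was 0.12 ± 0.18 after quantile normalization (SE; adjusted p = 0.607) and -0.36 relative to the seminal proteins (adjusted p = 0.147). BV2 minus AtT20 was -1.39 ± 0.18 after quantile normalization (adjusted p = 2.4e-06), where the groups did not overlap, but 0.05 with the median of the probes (adjusted p = 0.757) and -0.32 relative to the seminal proteins (adjusted p = 0.172). The probes gave different accounts. Probe 1 was above threshold in BV2 cells alone, at 1.01 ± 0.29, against 0.13 ± 0.09 in N18 cells and 0.23 ± 0.11 on the plates labelled AtT20 (SD, n = 4), and its difference between BV2 and N18 cells was 0.87 ± 0.14 (SE; adjusted p = 0.000136). Probe 2 was above threshold in all 3 lines, at 1.69, 2.62 and 2.50 in BV2 cells, N18 cells and on the plates labelled AtT20, with a BV2 minus N18 difference of -0.27 that did not pass (adjusted p = 0.425). Probe 3 was below threshold in each line, yet it passed with 0.38 ± 0.11 (adjusted p = 0.0155). The call of Irf8 in N18 cells and on the plates labelled AtT20 thus rests on probe 2, and was lost with the median of the probes in both. With that median Irf8 was higher in BV2 than in N18 cells by 0.87 (adjusted p = 2.48e-05). With probes averaged as log2 values it was higher by 0.33 (adjusted p = 0.0333). The calls of Irf8 in BV2 and in N18 cells were also lost with olfactory receptor genes as controls.

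The first of the windows of Irf8 (chr8:120736108-120736407, plus strand, same source) is printed because it holds 2 gamma-activated sites, in capitals, TTCTCGGAA at -171 to -163 and TTCAGAGAA at -153 to -145. The other window held none of the 3 motifs.
Irf8: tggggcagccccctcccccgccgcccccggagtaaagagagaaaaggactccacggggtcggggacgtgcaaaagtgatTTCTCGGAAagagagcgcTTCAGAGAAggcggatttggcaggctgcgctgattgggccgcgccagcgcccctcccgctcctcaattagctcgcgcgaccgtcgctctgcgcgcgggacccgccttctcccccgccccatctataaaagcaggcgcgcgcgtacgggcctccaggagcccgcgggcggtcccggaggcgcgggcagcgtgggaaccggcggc

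Irf4, which acts in B and T lymphocytes, was below threshold in every line, on all 12 plates. Its level was -0.19, -0.02, -0.42 and -0.21 on the plates of BV2 cells, -0.68, -0.36, -0.41 and -0.59 on those of N18 cells, and 0.11, 0.17, -0.05 and 0.22 on the plates labelled AtT20. None of its 3 probes was above threshold in any line. It nevertheless passed the test as lower in BV2 cells (-0.74 ± 0.11, adjusted p = 1.48e-05) and in N18 cells (-1.0 ± 0.11, adjusted p = 4.3e-07) than on the plates labelled AtT20. These values were -0.33 and -0.63 relative to the seminal proteins and -1.69 and -2.02 without normalization, each past the test. No fold is given for a gene below threshold on both sides.

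**Figure D2:**
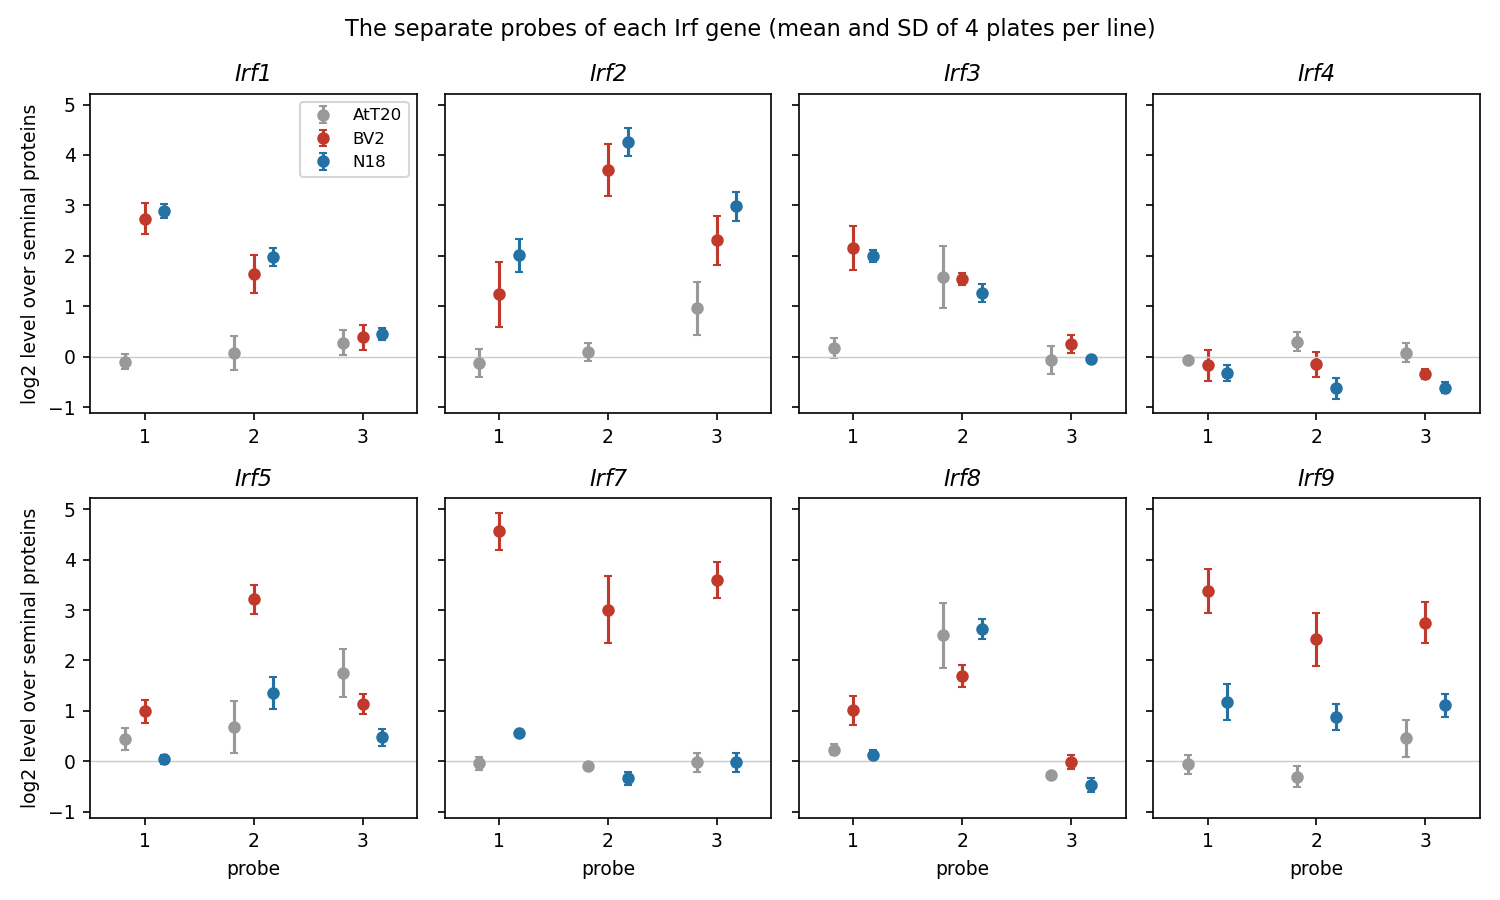
Each panel plots the 3 probes of an Irf gene (horizontal axis) with their log2 level over the seminal proteins (vertical axis) as the mean and SD of 4 plates, in gray for AtT20, red for BV2 and blue for N18. The 3 probes of Irf7 and of Irf9 all place BV2 highest, while probes 1 and 2 of Irf8 and probes 2 and 3 of Irf5 order the lines differently.

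Between BV2 and N18 cells, 4 of the 8 genes were higher in BV2 (Irf3, Irf5, Irf7 and Irf9), none was lower and 4 did not pass (limma, Benjamini-Hochberg adjusted p over 25128 genes and targets). Of all genes and targets, 40.9% passed in this comparison, 21.9% as higher and 19% as lower in BV2 cells. The median difference was 0.45 over the 8 genes and 0.06 over all. In 6 of the 8 the quantile-normalized values of BV2 and N18 plates did not overlap, as was so for 55.4% of all genes, with 31.9% higher in BV2 cells. Of the 24 probes, 12 were higher in BV2 cells and none was lower, where 27.6% of all probes passed and 13.2% were higher in BV2 cells. Without the plates labelled AtT20 in the normalization and the fit, Irf1 (0.37, adjusted p = 0.00807) and Irf4 passed as well, which made 6 higher, but then 61.9% of all genes passed. Irf2 passed as lower in BV2 cells without normalization, beside 3 Irf genes that were higher, and relative to the seminal proteins, beside 4. The background moved with the scale too: 38.3% of all genes passed without normalization, 7.58% as higher in BV2 cells, and 51.9% relative to the seminal proteins, 13.1% as higher.

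Against the plates labelled AtT20, the family split. In BV2 cells 4 genes were higher (Irf1, Irf2, Irf7 and Irf9) and 3 lower (Irf3, Irf4 and Irf8), where 73.6% of all passed, 26.6% as higher and 47% as lower. In N18 cells 2 were higher (Irf1 and Irf2) and 4 lower (Irf3, Irf4, Irf5 and Irf8), where 76.4% passed, 27.8% as higher and 48.6% as lower. Both comparisons use the same 4 plates, so their counts are not independent. The quantile-normalized values did not overlap for 7 and 6 of the 8 genes, against 62.6% and 68.2% of all (22.9% with BV2 higher and 24.9% with N18 higher). Of the probes, 13 were higher and 7 lower in BV2 cells and 6 were higher and 11 lower in N18 cells, against 62.5% and 65.8% of all probes passing (27.7% and 29.8% as higher).

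Of the lower values in these counts, those of Irf3, Irf5 and Irf8 turned or lost their call with the scale, and those of Irf3 and Irf8 also differed with the probe. Irf4, below threshold in every line, stayed lower and past the test in 8 of 8 alternatives in both comparisons. The seminal proteins themselves lay at 10.36 ± 0.09 on the plates labelled AtT20 after quantile normalization, above 10.03 ± 0.05 in BV2 and 9.95 ± 0.02 in N18 cells. Relative to them, the median difference of all genes became 0.28 for BV2 and 0.54 for N18 against the plates labelled AtT20, from -0.23 and -0.25, and became -1.08 and -0.85 without normalization. The share of all genes that passed as higher became 50.4% (with 68% passing) in BV2 cells and 60.7% (with 77% passing) in N18 cells relative to the seminal proteins, and 11.7% (with 86.4% passing) and 19.9% (with 83% passing) without normalization. On the seminal scale 6 Irf genes were higher in BV2 cells and 1 lower, and 4 were higher in N18 cells and 1 lower. Irf3 turned to higher in both, and Irf8 in N18 cells moved from -1.51 (adjusted p = 7.89e-07) to 0.04 (adjusted p = 0.861). Irf5 in N18 cells moved from -1.74 (adjusted p = 1.81e-09) to -0.35 (adjusted p = 0.101).

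**Figure D3:**
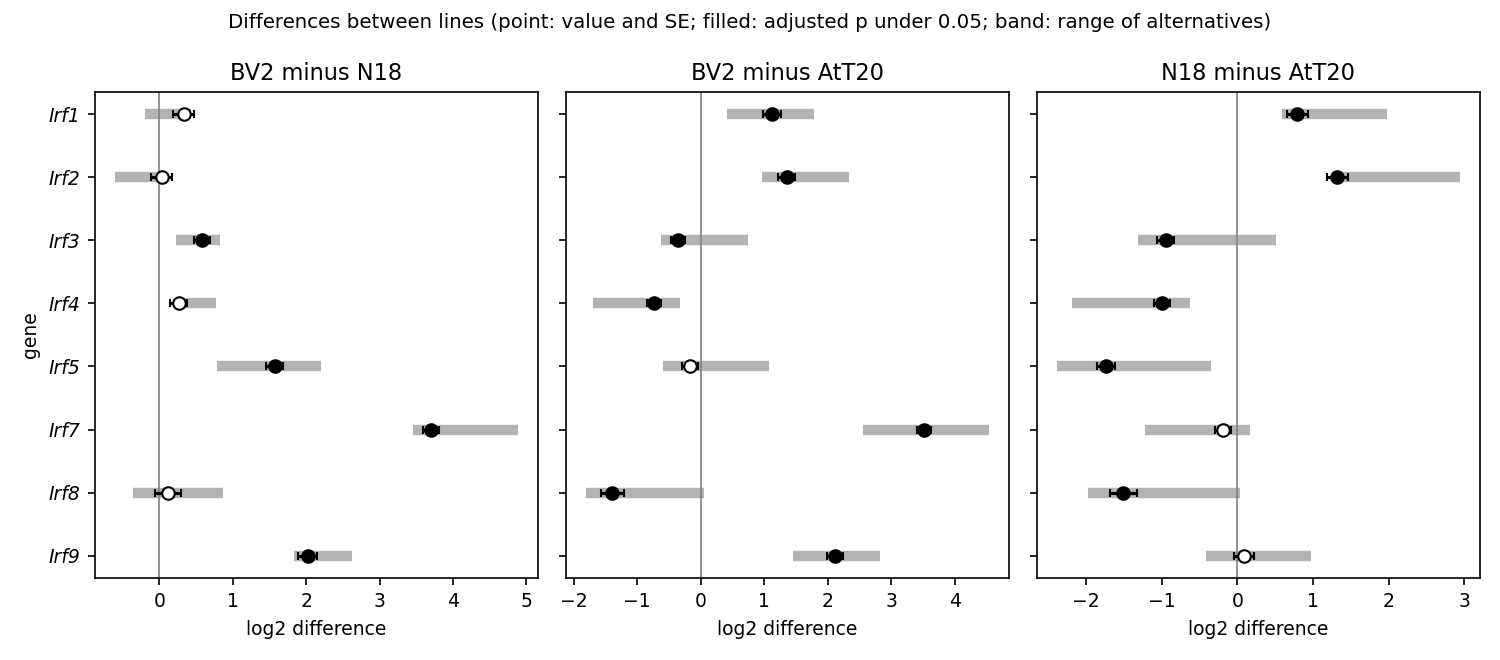
Each panel plots the log2 difference between a pair of lines (horizontal axis) for the 8 Irf genes, with the SE as a bar, filled where the adjusted p was under 0.05, and a gray band for the lowest to highest value over 9 alternatives (8 for Irf4). The bands of Irf7 and Irf9 stay above 0 in both comparisons with BV2, at 2.55 or more and 1.46 or more, while those of Irf3 and Irf8 cross 0 against AtT20.

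The genes around the family were then compared between BV2 and N18 cells, from the interferons to the targets. These counts stand beside the 21.9% of all genes that were higher in BV2 cells and the 19% that were lower. Of 18 interferon genes, 5 were higher in BV2 cells and none lower, by 0.56 at most (Ifna14, with Ifnl2 at 0.46 and Ifnl3 at 0.40), and the list median was 0.17. The count was 1 higher without normalization, 4 higher and 2 lower relative to the seminal proteins, and 10 higher when the 8 arrays of the pair were normalized and fitted alone. Ifna14 kept its call in 9 of 9 alternatives, Ifnl2 in 6 of 8 and Ifnl3 in 7 of 9. Ifnb1, the first type I interferon made on infection, was below threshold in all 3 lines, with levels of 0.05 ± 0.05 in BV2 cells, -0.19 ± 0.02 in N18 cells and 0.20 ± 0.07 on the plates labelled AtT20 (SD, n = 4). It was among the 5 that passed as higher in BV2 cells. So were Ifnl2 and Ifna11, which were also below threshold in all 3 lines. Several alpha interferon genes were above threshold. Of the list, 5 were in N18 cells and 6 in BV2 cells with Ifnl3 among them, beside 55.4% and 53.3% of all genes and targets. The alpha interferon genes are near copies of each other and their probes may share signal, which was not tested.

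Of 6 interferon receptor genes, Ifnar2, a chain of the type I receptor, was higher in BV2 cells by 1.85 ± 0.12 (SE; adjusted p = 2.49e-09) and Il10rb by 1.13 ± 0.16 (adjusted p = 1.83e-05), while none was lower. Without normalization 2 were higher and 1 lower, and relative to the seminal proteins 1 was higher. Ifnar1, the partner chain of Ifnar2, was above threshold in all 3 lines, with a difference of 0.15 between BV2 and N18 cells (adjusted p = 0.349). Of 7 Jak and Stat genes 4 were higher in BV2 cells and none lower, with a list median of 0.66. Without normalization 2 were higher and none lower, and relative to the seminal proteins 3 were higher and 2 lower, with a median of 0.39. Among them were the kinase Jak2 at 1.36 ± 0.10 (adjusted p = 1.6e-08) and Stat2, a partner of Irf9, at 1.02 ± 0.15 (adjusted p = 3e-05). Jak2 kept its call in 9 of 9 alternatives and Stat2 in 7 of 9. Stat2 was above threshold in both lines, at 3.08 ± 0.44 in BV2 cells and 2.70 ± 0.17 in N18 cells (SD, n = 4).

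Of 19 sensors, adaptors and kinases that lead to Irf activation, 12 were higher in BV2 cells and 1 lower, with a list median of 0.71. Myd88, the adaptor that links Toll-like receptors to Irf5 and Irf7, was higher by 2.90 ± 0.11 (adjusted p = 2.72e-12), the RNA sensor RIG-I (Ddx58) by 2.56 ± 0.13 (adjusted p = 6.51e-11) and the endosomal RNA receptor Tlr7 by 2.07 ± 0.15 (adjusted p = 9.69e-09). Tbk1, the kinase that phosphorylates Irf3 and Irf7, was lower in BV2 than in N18 cells, at -0.46 ± 0.11 (adjusted p = 0.00393). Relative to the seminal proteins 10 of the list were higher and 4 lower, and without normalization 9 and 2.

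Of 11 partners and cofactors, 4 were higher in BV2 cells and 2 lower. Spi1, the Ets factor that binds with Irf4 and Irf8, was higher by 3.58 ± 0.12 (adjusted p = 4.44e-13), Junb by 2.70 ± 0.17 (adjusted p = 1.45e-09) and Ikzf1 by 1.18 ± 0.12 (adjusted p = 5.8e-07). Irf2bp1 (-0.61 ± 0.12, adjusted p = 0.000632) and Irf2bpl (-0.47 ± 0.16, adjusted p = 0.0259), named as Irf2 binding proteins or their relative, were lower. Of 9 negative regulators 4 were higher and none lower, led by Usp18 at 3.60 ± 0.18 (adjusted p = 6.9e-11), which damps signaling at Ifnar2, the phosphatase Ptpn6 at 3.47 ± 0.15 (adjusted p = 1.39e-11) and Socs3 at 1.37 ± 0.13 (adjusted p = 2.62e-07). Without normalization 4 of the partners were higher and 4 lower, and 3 of the negative regulators were higher and 3 lower. Relative to the seminal proteins those counts were 5 and 4, and 3 and 2. On that scale the medians of the receptors, of the partners and of the negative regulators turned below 0, to -0.26, -0.26 and -0.14.

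Genes that Irf proteins are known to turn on were mostly higher in BV2 cells. Of 22 on the array, 18 were higher in BV2 than in N18 cells, none was lower, and Psmb8, Ciita, Il12a and Il15 did not pass. The list median was 2.15, against 0.06 over all genes. Ifit1 was higher by 4.58 ± 0.11 (adjusted p = 2.35e-14), Rsad2, the antiviral enzyme viperin, by 4.27 ± 0.13 (adjusted p = 1.7e-13) and Ifit3 by 4.14 ± 0.13 (adjusted p = 2.65e-13). In BV2 cells 20 of the 22 were above threshold, in N18 cells 9 and on the plates labelled AtT20 6. Of all genes and targets, 53.3%, 55.4% and 35% were, in the same order. Without normalization and relative to the seminal proteins 17 were higher and 1 lower, with medians of 2.06 and 2.03, and without the plates labelled AtT20 in the normalization and the fit 21 were higher and none lower. Against the plates labelled AtT20, 16 were higher in BV2 cells and 1 lower, with a median of 1.47, where 26.6% of all genes were higher and 47% lower. Relative to the seminal proteins 21 were higher and none lower (median 2.39), and without normalization 14 were higher and 3 lower (median 1.02). The microglial markers moved with these genes, with a median BV2 minus N18 difference of 3.74, at a plate mean of 3.24 to 3.94 in BV2 cells, 0.10 to 0.18 in N18 cells and -0.03 to 0.07 on the plates labelled AtT20. The part of the cell type in the values of the Irf genes and their targets was not tested.

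**Figure D4:**
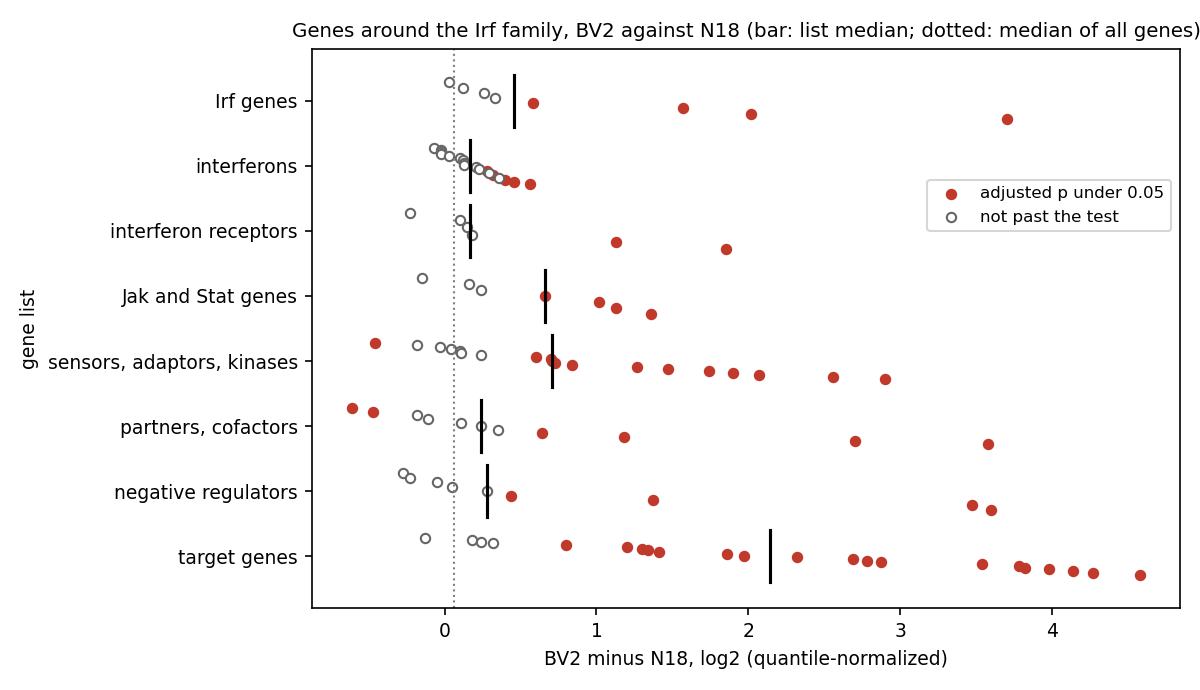
Each point is a gene of a list (vertical axis, with points spread only for sight) at its BV2 minus N18 difference in quantile-normalized log2 level (horizontal axis), red where the adjusted p was under 0.05 and open where not, with a bar at the list median and a dotted line at the median of all genes, 0.06. Of the lists drawn, the target genes lie farthest to the right, with a median of 2.15, and the interferons lie near 0, with a median of 0.17.

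For each Irf gene that passed between BV2 and N18 cells, the named genes with the nearest pattern over the 12 arrays were found by the root mean square difference after each gene was centered on its mean. Irf7 was nearest to Siglec1 (0.129 on the log2 scale) and Itgam (0.143), whose BV2 minus N18 differences were 3.62 and 3.74. Irf9 was nearest to Milr1 (0.125) and P2rx7 (0.138), each at 2.08. Irf5 was nearest to Arrb2 (0.151) and Pxn (0.166), at 1.76 and 1.70, and Irf3 to Kcnj6 (0.073) and Btf3l4 (0.086), at 0.60 and 0.51. These are likenesses in 3 lines only.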

How the data were processed

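Total RNA from 12 plates (3 lines, 4 plates each) was labelled with Cy3 and hybridized to NimbleGen arrays, and intensities were extracted with NimbleScan. The deposited values are log2 intensities, which the authors made for each of 72000 probes, with no background subtraction or normalization between arrays described. Probes were joined to genes through RefSeq transcripts (69.4% of 25631 targets matched). The level of a target is the log2 of the linear mean of its probes, and that of a gene is the mean over its targets.

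Lines were compared with limma 3.58.1 (R 4.3.3; lmFit, eBayes with a trend) on quantile-normalized values of all 12 arrays, two-sided, with Benjamini-Hochberg adjustment over 25128 genes and targets, or over 72000 probes, at an adjusted p under 0.05. The fit was also run on simulated data in which few genes were changed and all lines had equal spread. These arrays differ from that, so that run does not show how the fit does on them. Folds against a gene below threshold are lower bounds, the smallest of 3 scales (quantile-normalized, relative to the seminal proteins, not normalized). Detection was repeated with 3 SD, with all 4 plates or at least 2 probes above threshold, with olfactory receptor controls, without the highest seminal protein, after quantile normalization, with probes averaged as log2 values or by their median, and without each plate. Comparisons were repeated with a replicate block, a filter on dim genes, normexp, both other averages of probes, only the 8 arrays of a pair, unnormalized values, values over the seminal proteins, and without each plate. The rule of at least 2 probes, the normalization of a pair alone and the fold bounds were chosen after seeing the data. The members and lists were chosen with earlier results of these data known. Named are all 8 genes, up to 3 genes per list and direction with the largest BV2 minus N18 difference among those past the test, the 2 nearest patterns, and markers. Ifnb1, Ifna11, Ifnar1 and the target genes that did not pass were named after their values were seen. Genes of the lists without a matched target (Sting1, Irf2bp2, Mx1, Mx2, Il12b and Cd68) are not analysed here. A few genes that the naming rule would take are not reported by name. Protein identities were planned but not run, since no protein sequences were used here. The lists count 18 interferons, 6 receptors, 7 Jak and Stat genes, 19 activators, 11 partners, 9 negative regulators and 22 targets on the array, and 11 of 12 genes of all cells were above threshold in each line. Signal over background and 4 arrays per line limit the precision. Other software was matplotlib 3.10.9, scipy 1.17.1, pandas 2.3.3, numpy 2.4.6 and Python 3.11.15.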

Additional observations from a re-analysis of the deposited data

How the results depend on the processing

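Irf7 and Irf9 kept their direction and call against N18 cells and against the plates labelled AtT20 in BV2 cells under all 9 alternatives, as did Irf5 between BV2 and N18 cells. The number of Irf genes above threshold on the plates labelled AtT20 fell to 1 with the median of probes and with at least 2 probes, and in N18 cells to 2 with olfactory receptor controls. The shares of all genes above threshold under those rules are not given here, so these falls cannot be set against those of all genes. Leaving out each plate gave 4 to 4 on the plates labelled AtT20, 7 to 7 in BV2 and 5 to 6 in N18 cells. The genes past the test between BV2 and N18 cells went from 10270 to 15509 with only the 8 arrays fitted and to 15554 with these also normalized alone, and ran from 8783 to 9431 without a plate, where those of BV2 against AtT20 ran from 17535 to 19030 and of N18 against AtT20 from 18350 to 19662. The sign of BV2 minus N18 turned without normalization (Irf1 -0.17, Irf2 -0.58, Irf8 -0.33), relative to the seminal proteins (Irf1 -0.20, Irf2 -0.61, Irf8 -0.36), and for Irf2 with the median of probes (-0.03), with probes averaged as log2 values (-0.05), and without BV2 plate 1 (-0.01), BV2 plate 4 (-0.05) or N18 plate 1 (-0.05), in a range of -0.05 to 0.12 over the plates left out. BV2 minus AtT20 turned relative to the seminal proteins (Irf3 0.74, Irf5 1.08) and with the median of probes (Irf3 0.63, Irf8 0.05). N18 minus AtT20 turned relative to the seminal proteins (Irf3 0.51, Irf7 0.17, Irf8 0.04), with the median of probes (Irf3 0.00) and without normalization (Irf9 -0.42). The cause was not tested. Of 405 differences computed under alternatives, 365 kept their sign and side of the threshold. The replicate numbers did not pair the plates: plates with the same number deviated together with correlations of -0.11 to 0.32, and with the replicate block 10108, 18427 and 19127 genes passed, against 10270, 18495 and 19192, with no call of an Irf gene changed. The AtT20 label, the narrow intensities of those plates and the slides limit what differences from them show.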
